A study of Peromyscus californicus with 17 samples.

Results

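Immediate early genes were followed in the lungs of male P. californicus, the monogamous California mouse. Of the 27786 genes in the table, 9 were taken by their symbols: Fos, Fosb, Jun, Junb, Egr1, Atf3, Ier2, Nr4a1 and Dusp1. The study sequenced lung RNA from 17 males, with 1 library per animal, to ask how the lung transcriptome differs with bonding status. The bonded group held 6 males (B1 to B6) that had lived with a mate for about 4 months. The bond-disrupted group held 6 males (BD1 to BD6) that were also paired for about 4 months, were then taken from their mate, and gave their lungs 7 days later. The virgin group held 5 unmated males (V2 to V6) of similar age kept in shared cages. All 17 males came from the genetically diverse stock IS and were 12 to 15 months old, and the labels name no transgene, deletion or drug. Siblings and cousins were spread over the groups, so the animals are not unrelated.

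Immediate early genes are transcribed soon after a cell receives a signal such as a growth factor, stretch or injury, from factors that are already present, among them serum response factor and CREB. Most of their products are themselves transcription factors: Fos and Jun proteins join into the dimer AP-1, while Egr1, Atf3 and Nr4a1 bind other sites. Others close the loop, such as Dusp1, a phosphatase that removes the activating phosphates from the kinases that switch these genes on. In the lung they are known to be used by epithelium, vessels, fibroblasts and immune cells alike. Whole tissue was sequenced, so fewer cells of a type and less RNA per cell cannot be told apart in these values.

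Levels are given as FPKM, the fragments counted for a gene per kilobase of its length, scaled to the depth of the library. As deposited, each animal's column had been divided by the length of a gene some rows higher in the table, a different gene for each column, so one animal's values cannot be set against another's. This was undone before any comparison. All 153 values of the 9 genes (17 animals each) came back as whole reads, none of them more than 5e-06 of a read from a whole number, from 20 for Fosb to 18138 for Jun, and each was then divided by the gene's own length. The scale of these reads is known only up to a common factor, because 81.5% of all whole reads above 0 were even, but FPKM do not depend on it. The effect is large: Jun, the DNA-binding partner of Fos, ran from 14.9 to 1459 FPKM as deposited and from 63.6 to 140 FPKM with its own length. The depth of the libraries, in M reads (mega, the SI prefix), was 30.8 to 68.2 in bonded animals, 43.9 to 59.4 in bond-disrupted animals and 38.0 to 44.9 in virgins.

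Over all genes, BD2 and BD6 stood apart from the other animals. In them 13.4% and 14.0% of the genes tested (the 15118 that reached 1 FPKM in at least 1 animal) lay over 0.5 from the gene's median over animals on the log2(FPKM + 1) scale, against 4.48% to 11.1% in the other 15 animals. The labelled tissue was checked with 13 lung markers, of which 11 had values. Their summed level was 76439 to 196163 FPKM, and no marker of any list with values was at 0 in every animal.

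In level per length, Jun came first of the 9 genes with a median of 85.3 FPKM over the 17 animals, followed by Dusp1 with 74.5. Ier2, a small nuclear protein of the early response, had a median of 39.9 FPKM, and Junb, a Jun relative with weaker activity in AP-1, had 26.9. Egr1 (15.3), Fos (14.9) and Nr4a1 (12.8) lay close together. Atf3, a stress-induced bZIP factor, had 6.95 FPKM and Fosb, a close relative of Fos, had 0.590. This order was clear between Dusp1 and Ier2, Ier2 and Junb, Nr4a1 and Atf3, and Atf3 and Fosb, where the first was the higher in 17 of 17 animals. Jun was above Dusp1 in 14 of 17 animals and Junb above Egr1 in 14. Neither Egr1 and Fos nor Fos and Nr4a1 could be ordered, since the first of each pair was higher in 9 of 17 animals. The level of Nr4a1 is the least sure of these, since its length of 2766 bases gave whole reads in 8 of the 12 values of other genes that it was solved from. No ratio of FPKM between animals depends on that length. Differences in log2(FPKM + 1) depend on it only through the 1 that is added.

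The most abundant AP-1 gene of this lung was not among the 9: Jund, a Jun protein that is present in most resting cells, had a median of 155 FPKM. Together Jun, Junb and Jund summed to a median of 266 FPKM in bonded animals, 232 in bond-disrupted animals and 303 in virgins. Fos, Fosb, Fosl1 and Fosl2 summed to a median of 23.0, 24.0 and 23.0 FPKM in the same groups.

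**Figure D1:**
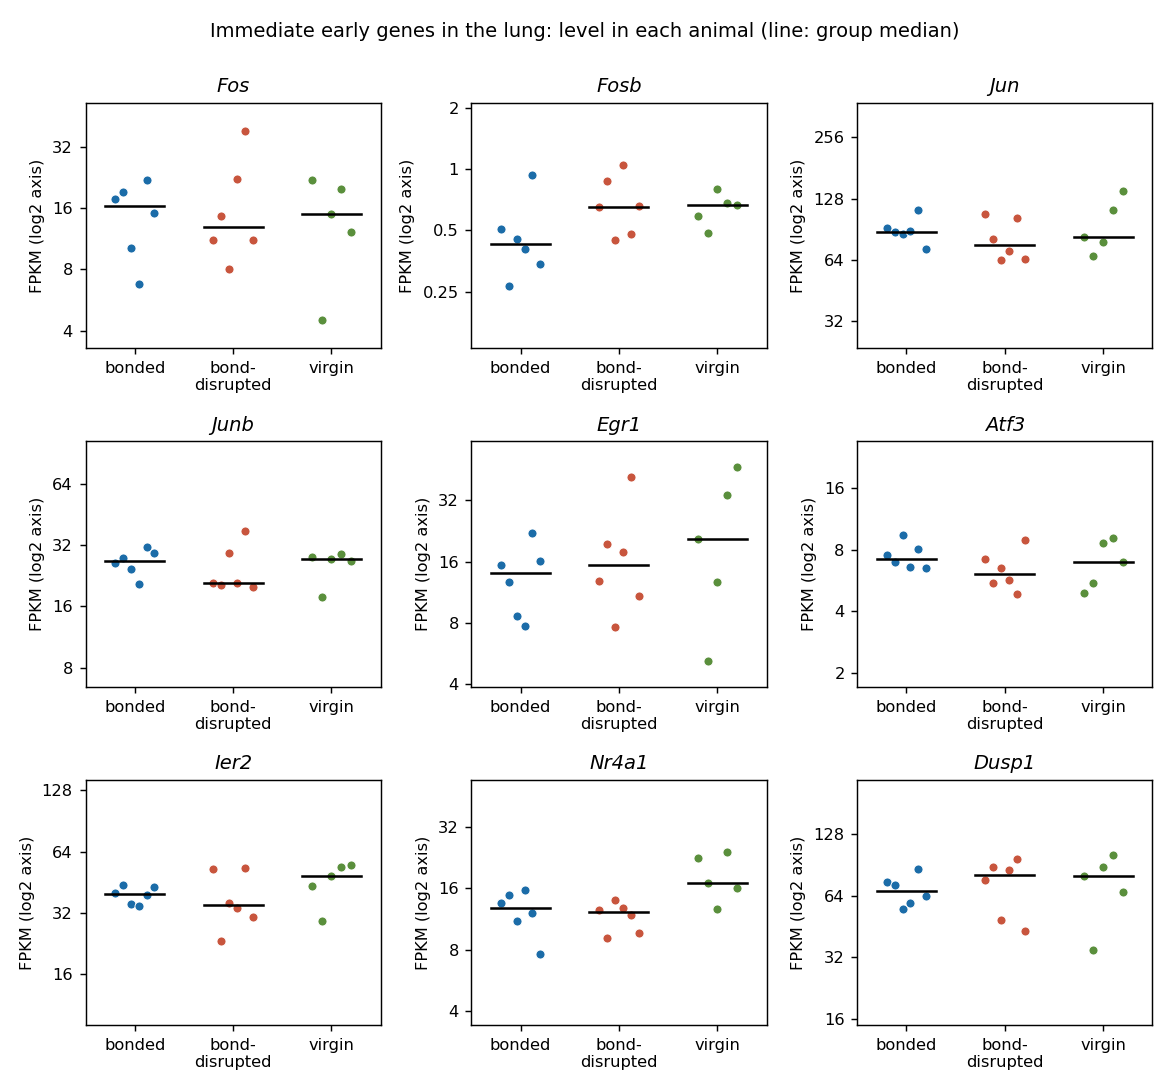
Level of the 9 genes in each animal. Each panel is 1 gene, each point is 1 animal (6 bonded, 6 bond-disrupted, 5 virgin), the line is the group median, and the vertical axis is FPKM on a log2 scale that spans the same number of doublings in every panel. The groups overlap in all panels. Points are spread most for Egr1 and Fos, and 4 of 5 virgins lie above all bonded and all bond-disrupted animals for Nr4a1.

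Among the AP-1 genes, Fos lay between 6.78 and 21.9 FPKM in bonded animals (median 16.4, n = 6). In bond-disrupted animals Fos lay between 7.99 and 37.9 FPKM (median 12.9, n = 6). The virgins V2 to V6 had 21.9, 4.52, 14.9, 19.7 and 12.1 FPKM of Fos. The groups overlapped, BD5 was the highest and V3 the lowest of all animals, and the highest value was 8.38 times the lowest. On the log2(FPKM + 1) scale, bond-disrupted animals differed from bonded ones by 0.11 (SE 0.39), virgins from bonded animals by -0.11 (SE 0.41) and virgins from bond-disrupted animals by -0.21 (SE 0.41). All 3 took the other sign without a single animal, at -0.15 without BD5, 0.23 without V3 and 0.12 without V3.

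Fosb, a partner of Jun proteins like Fos, had the fewest reads of the 9, 20 to 120 per animal. It lay between 0.266 and 0.929 FPKM in bonded animals (median 0.430) and between 0.449 and 1.05 in bond-disrupted animals (median 0.654). Fosb was 0.590, 0.485, 0.8003, 0.682 and 0.669 FPKM in the virgins V2 to V6. It passed the filter of 1 FPKM through BD4 alone, and its groups overlapped. Its differences in mean log2(FPKM + 1) were 0.19 (SE 0.10) for bond-disrupted against bonded, 0.16 (SE 0.11) for virgin against bonded and -0.033 (SE 0.11) for virgin against bond-disrupted animals, and this scale understates ratios at such a low level.

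Jun lay between 72.5 and 112 FPKM in bonded animals (median 88.0) and between 63.6 and 108 in bond-disrupted animals (median 76.0). In the virgins V2 to V6 Jun was 83.3, 66.5, 78.7, 112 and 140 FPKM. V6 was the highest animal and BD3 the lowest, with overlap between all groups. Bond-disrupted animals differed from bonded ones by -0.15 (SE 0.18), virgins from bonded animals by 0.059 (SE 0.19) and virgins from bond-disrupted animals by 0.21 (SE 0.19), all in log2(FPKM + 1). They were -0.087 without B5, -0.088 without V6 and 0.066 without V6.

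Junb lay between 20.7 and 31.5 FPKM in bonded animals (median 26.8). In bond-disrupted animals 4 of the 6 values were between 19.9 and 20.8 FPKM, the other two being 29.1 in BD3 and 37.4 in BD5. The virgins V2 to V6 had 28.0, 17.8, 27.5, 28.8 and 26.9 FPKM, so that V3 was far below the other virgins. For Junb the differences in mean log2(FPKM + 1) were -0.13 (SE 0.16) for bond-disrupted against bonded, -0.048 (SE 0.17) for virgin against bonded and 0.082 (SE 0.17) for virgin against bond-disrupted animals. With 1 animal left out they were -0.25 without BD5, 0.075 without V3 and 0.21 without BD5.

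Egr1, a zinc finger factor that turns on genes of growth, matrix and clotting, was the most variable of the 9. It lay between 7.76 and 22.0 FPKM in bonded animals (median 14.0) and between 7.62 and 41.6 in bond-disrupted animals (median 15.4). From V2 to V6 the virgins had 20.8, 5.20, 12.7, 33.9 and 46.6 FPKM, so this group held both the lowest animal (V3) and the highest (V6), which differed by 8.97 times. Bond-disrupted animals differed from bonded ones by 0.28 (SE 0.45) and virgins from bonded animals by 0.50 (SE 0.47, 95% interval -0.50 to 1.504) in log2(FPKM + 1). Virgins differed from bond-disrupted animals by 0.23 (SE 0.47). Single animals carried these values: virgin against bonded was 0.92 without V3 and 0.19 without V6, and bond-disrupted against bonded was 0.0090 without BD5.

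Atf3 had the narrowest range of the 9, its highest value being 1.95 times its lowest. It lay between 6.52 and 9.51 FPKM in bonded animals (median 7.25) and between 4.88 and 8.99 in bond-disrupted animals (median 6.10). In the virgins Atf3 was 4.90, 5.48, 8.64, 9.19 and 6.97 FPKM, from V2 to V6. In 4 of 6 bond-disrupted animals Atf3 was below every bonded animal, while BD6 was above every bonded animal except B3. The differences in mean log2(FPKM + 1) were -0.21 (SE 0.15) for bond-disrupted against bonded, -0.11 (SE 0.16) for virgin against bonded and 0.096 (SE 0.16) for virgin against bond-disrupted animals. The last of these was 0.0017 without V5, and virgin against bonded was -0.0061 without V2.

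Ier2 lay between 34.8 and 44.0 FPKM in bonded animals (median 39.6) and between 23.4 and 53.2 in bond-disrupted animals (median 34.8). Ier2 in V2 to V6 was 43.6, 29.3, 48.4, 53.7 and 55.2 FPKM. BD2 was the lowest animal and V6 the highest, and 3 of 5 virgins were above all bonded animals. In mean log2(FPKM + 1), Ier2 differed by -0.096 (SE 0.19) between bond-disrupted and bonded animals, by 0.19 (SE 0.19) between virgin and bonded animals and by 0.29 (SE 0.19) between virgin and bond-disrupted animals. Without BD2 and BD6 the first of these turned to 0.13. The second ran from 0.12 without V6 to 0.34 without V3, and the last from 0.16 without BD2 to 0.44 without V3.

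Dusp1, the inhibitor among the 9, lay between 54.9 and 86.8 FPKM in bonded animals (median 67.9) and between 43.2 and 97.0 in bond-disrupted animals (median 81.1). Dusp1 in V2 to V6 was 79.9, 34.7, 88.8, 101.2 and 66.8 FPKM. V3 was the lowest animal and V5 the highest, both virgins. No difference of Dusp1 between groups exceeded 0.052 in size on the log2(FPKM + 1) scale: they were 0.052 (SE 0.24) for bond-disrupted against bonded, 0.047 (SE 0.26) for virgin against bonded and -0.0050 (SE 0.26) for virgin against bond-disrupted animals, and each of the 3 took the other sign when certain single animals were left out.

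Nr4a1, an orphan nuclear receptor that tempers inflammation in macrophages and vessels, gave the largest differences for their error. It lay between 7.64 and 15.7 FPKM in bonded animals (median 12.8) and between 9.13 and 13.9 in bond-disrupted animals (median 12.2). Nr4a1 in V2 to V6 was 22.4, 17.003, 12.7, 24.2 and 16.0 FPKM. Thus 4 of 5 virgins were above every bonded and every bond-disrupted animal, and V4 lay within both ranges. Virgins differed by 0.53 (SE 0.18, 95% interval 0.15 to 0.90) from bonded animals and by 0.60 (SE 0.18, interval 0.22 to 0.98) from bond-disrupted animals in log2(FPKM + 1). Both comparisons share the same 5 virgins. Bond-disrupted animals differed from bonded ones by -0.073 (SE 0.17), a value that ran from -0.19 without B6 to -0.0039 without B4 and was 0.063 without BD2 and BD6.

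These Nr4a1 differences did not pass the adjustment over all genes. The unadjusted limma p was 0.0093 against bonded animals (adjusted p = 1) and 0.0039 against bond-disrupted animals (adjusted p = 0.948). Exact permutation of the animals, two-sided, gave unadjusted p = 0.0303 and p = 0.0130. Of 15118 genes, 90 had a lower p than Nr4a1 in the first comparison and 27 in the second. Leaving out each animal in turn left the unadjusted p between 0.0023 and 0.034 in the first and between 0.00096 and 0.015 in the second. BD2 and BD6, which stood apart over all genes, had the lowest Nr4a1 of the bond-disrupted animals, at 9.13 and 9.64 FPKM. Without both, virgins differed from bond-disrupted animals by 0.46 in place of 0.60 in log2(FPKM + 1). That is below the range of 0.50 to 0.72 with single animals left out. The difference of virgins from bonded animals stayed at 0.53.

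No member was called in any comparison, a call being an adjusted p under 0.1 with a change of at least 2-fold. The same limma fit called 0 of 15118 genes in each of the 3 comparisons (0% of genes), and limma with voom weights on the recovered reads also called 0. The lowest adjusted p among the 27 differences of members was 0.859. At an unadjusted p under 0.05, 0 of 9 members passed for bond-disrupted against bonded, where 5.87% of all genes did. For virgin against bonded 1 of 9 members passed, Nr4a1, where 3.61% of all genes did, and for virgin against bond-disrupted again Nr4a1 alone, where 4.22% did. Counting only genes that were higher in the group named first, as Nr4a1 was in virgins, the shares of all genes were 2.8%, 2.11% and 2.18%.

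The median difference of the 9 members was -0.073 for bond-disrupted against bonded animals, 0.059 for virgin against bonded and 0.096 for virgin against bond-disrupted, beside 0.0059, 0.0055 and 0.0044 over all genes. With 1 animal left out these medians ran from -0.14 (without BD5) to -0.011 (without BD2), from -0.0096 (without V5) to 0.23 (without V3), and from 0.025 (without V5) to 0.24 (without V3), so neither their size nor, in virgin against bonded, their sign was stable. Of the 27 intervals, 25 included 0, and their half-widths ran from 0.22 for Fosb to 1.00 for Egr1. A difference of 1 on the log2(FPKM + 1) scale, in either direction, lay within the interval for Egr1 in all 3 comparisons and for Fos in virgin against bond-disrupted animals. For Fosb, at under 1 FPKM, this scale compresses ratios, so its narrow intervals do not bound a 2-fold change in FPKM. All 27 pairs of groups overlapped in range.

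**Figure D2:**
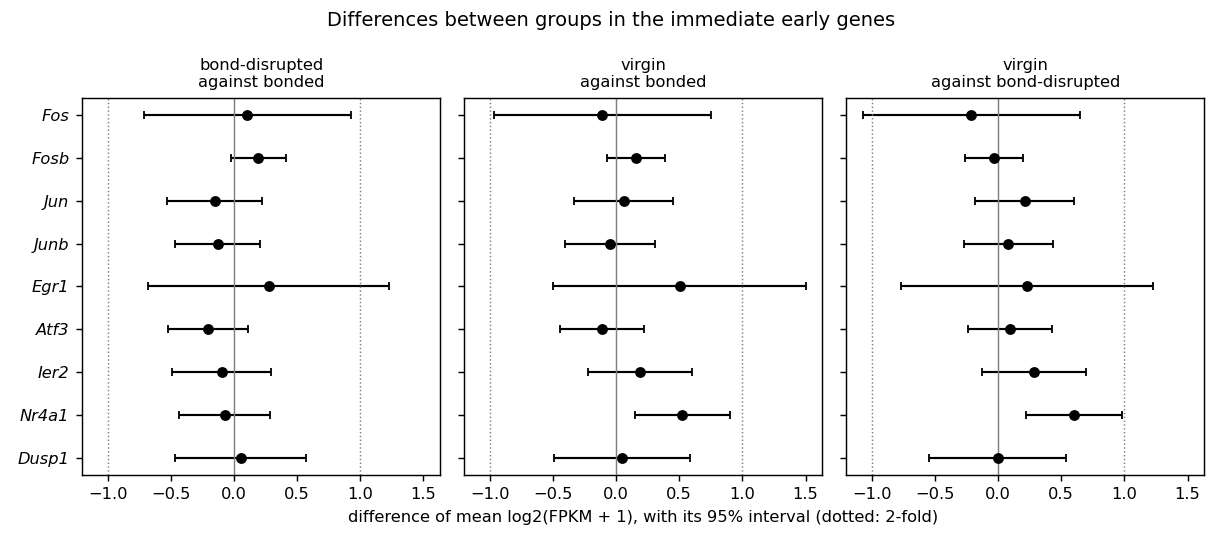
Differences between groups in the 9 genes. Points are the difference of mean log2(FPKM + 1) from the fit of all 17 animals, bars its 95% interval, the solid line is no difference and the dotted lines are 2-fold in either direction. The intervals leave out 0 only for Nr4a1 in virgins, at 0.53 against bonded and 0.60 against bond-disrupted animals, and are widest for Egr1 and Fos.

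How much a gene varied between animals of the same group differed widely among the members. The within-group SD of log2(FPKM + 1) was 0.84 for Egr1, above 98.4% of the genes tested, and 0.72 for Fos, above 97.3%. For Dusp1 it was 0.45 (88.3%), for Ier2 0.34 (78.3%) and for Jun 0.32 (75.7%). Nr4a1 (0.31), Junb (0.29) and Atf3 (0.27) followed, and Fosb had 0.18, below the median. In all, 8 of 9 members exceeded the median SD of 0.21 over all genes tested, and their own median was 0.32. This is a description without a test. The 13558 genes whose mean level lay between the lowest and the highest member had a median SD of 0.20. They are most of the 15118 genes tested, so they are not matched in level to any single member. For 37 further immediate early genes the median was 0.32, and 28 of them exceeded the median of all genes.

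**Figure D3:**
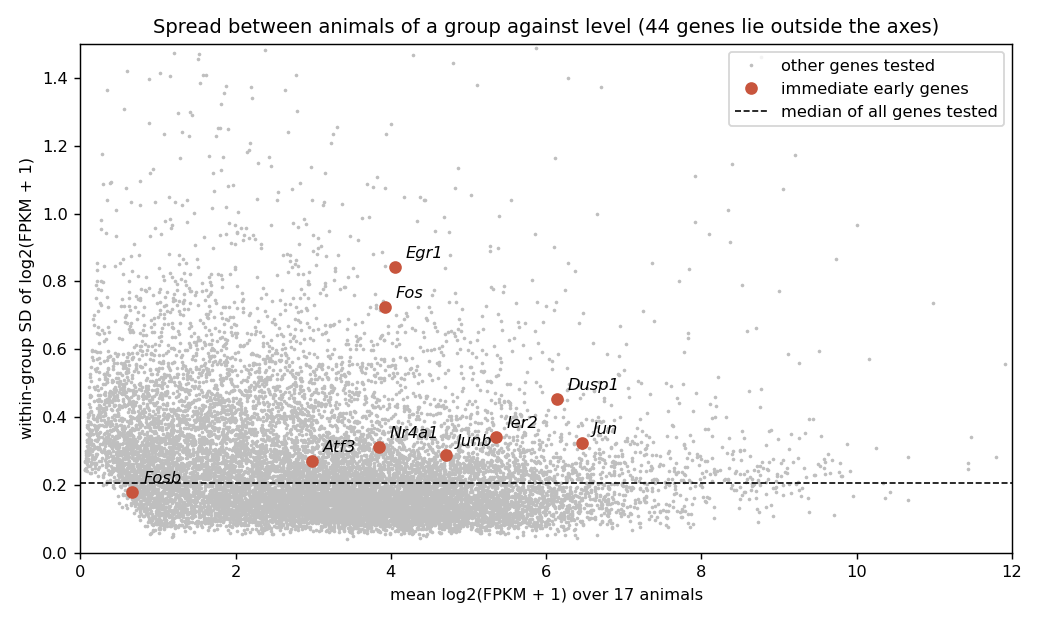
Spread between animals against level. Each grey point is 1 of the genes tested, red points are the 9 immediate early genes, the horizontal axis is the mean log2(FPKM + 1) over 17 animals, the vertical axis is the SD within groups on the same scale, and the dashed line is the median SD of 0.21. Egr1 (0.84) and Fos (0.72) lie above most genes of their level and Fosb (0.18) lies below the line. The 44 genes beyond the axes are not drawn.

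Some animals were high or low in most of the members. V3 was below its group mean in 9 of 9 members and V5 above it in 9 of 9. B1 and B5 were above their group mean in 8 of 9 members and BD5 in 7, while B3, B4 and BD6 were below in 8. The mean deviation over the members, in units of each gene's SD, was -1.45 for V3, 0.887 for V5, 0.780 for BD5 and 0.765 for B5. Animals with the same number are relatives in part. B2, BD2 and V2 are described as siblings, and B3, BD3 and V3 as 2 siblings and their cousin. B5, BD5 and V5 had the highest mean deviation of their groups, and B3 (-0.25), BD3 (-0.44) and V3 were all below 0. Over the 9 members, the deviations of animals numbered 3 correlated with each other at 0.73 to 0.88 and those of animals numbered 5 at 0.54 to 0.69. Some pairs of other numbers ran the opposite way, with -0.60 for B1 and BD1, -0.43 for B4 and BD4, -0.37 for B2 and BD2 and -0.29 for B6 and BD6. Others did not: B2 and V2 had 0.80, BD2 and V2 had 0.099 and B6 and V6 had 0.48. Over all 16 pairs with the same number the range was -0.60 to 0.88, the mean was 0.23 and 8 pairs were above 0.1, beside a mean of -0.040 for other pairs across groups. V3 did not stand apart over all genes, with 5.09% of them over 0.5 from the median, and its depth of 44.9 M reads was near that of the other virgins.

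**Figure D4:**
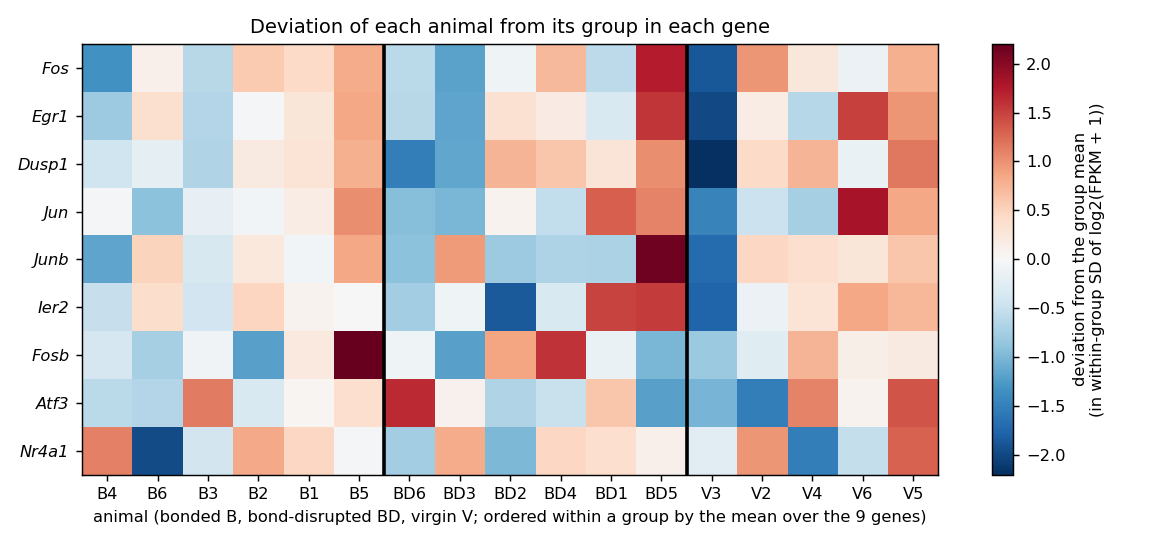
Deviation of each animal from its group. Rows are the 9 genes, columns the 17 animals ordered within each group by their mean over the genes, and the colour is the deviation of log2(FPKM + 1) from the group mean in units of the gene's within-group SD. V3 is blue in all 9 rows and V5 red in all 9, while the lower 3 rows (Fosb, Atf3, Nr4a1) follow the upper 6 poorly.

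Correlations between the members were taken over the deviations of the 17 animals from their group means, for all 36 pairs. Their permutation p-values treat the animals as independent, which relatives are not, and are too small to that extent. The median r was 0.27 and the mean 0.302, beside a mean of 0.0035 over all pairs of genes tested. All 12 pairs with r above 0.5 fell within Fos, Jun, Junb, Egr1, Ier2 and Dusp1, 6 genes grouped after their values were seen. Their 15 pairs had r from 0.37 to 0.83 (median 0.63). With 1 animal left out, r of these pairs ran from 0.19 (Jun and Junb) to 0.92 (Fos and Egr1). It fell to 0.24 for Fos and Jun and for Ier2 and Dusp1. The 21 pairs that involve Fosb, Atf3 or Nr4a1 had r from -0.17 to 0.46 (median 0.086). With the number of the animal as a further term (replicate block, added after the data were seen), the median r of the 36 pairs was 0.14, 7 pairs were above 0.5, and the 15 pairs had r from -0.072 to 0.77 (median 0.48).

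Fos and its feedback inhibitor Dusp1 were the most alike pair, with Pearson r = 0.83 (permutation p = 6.0e-05 within groups) and Spearman rho = 0.84 (p = 0.00015). Within the groups r was 0.85 in bonded, 0.75 in bond-disrupted and 0.94 in virgin animals, and it was 0.74 without V3 and BD5, the animals farthest from the median in Fos. Fos and Egr1, both targets of serum response factor, had r = 0.81 (permutation p = 0.00067) and rho = 0.73 (p = 0.0032), and r = 0.64 without the same 2 animals. Without BD2 and BD6 these r were 0.88 and 0.81, and with the replicate block 0.63 and 0.60.

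Egr1 and Jun had r = 0.75 (permutation p = 0.0038) and rho = 0.67 (p = 0.010), with r = 0.60 without V6 and V3. Egr1 and Dusp1 had r = 0.75 (permutation p = 0.0035) and rho = 0.69 (p = 0.0058), with r = 0.57 without V3 and BD5. Other pairs rested more on V3 and BD5: r was 0.71 with them and 0.43 without for Fos and Junb, and 0.52 and 0.16 for Fos and Ier2. It was 0.64 and 0.31 for Junb and Egr1, 0.57 and 0.25 for Egr1 and Ier2, and 0.53 and 0.22 for Junb and Dusp1. When limma fitted every gene to the deviations of 1 member at a time and adjusted over all genes, 0 of the 36 pairs passed at 0.1. The lowest adjusted p for a pair of members was 0.15, of Junb fitted to Ier2. Without BD2, 3 pairs passed in at least 1 direction of fitting, and without BD3 or without V6, 1 pair did.

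The same fits picked out 5 genes that are not members, named here because their number is small. Ccn1, a secreted matrix protein that is itself induced early by growth factors and stretch, followed Egr1 with r = 0.91 (limma adjusted p = 0.0058). Slc35b3, a Golgi transporter for sulfate donors, ran opposite to Egr1 (r = -0.92, adjusted p = 0.089). Areg, which encodes the growth factor amphiregulin, and Foxf1, a forkhead factor of lung mesenchyme and endothelium, followed Jun with r = 0.89 (adjusted p = 0.053) and r = 0.88 (adjusted p = 0.083). Upk2, which encodes the membrane protein uroplakin 2, ran opposite to Nr4a1 with r = -0.91 (adjusted p = 0.0088). For Jun and for Egr1, 0.0132% of the genes tested passed, for Nr4a1 0.00662%, and for the other 6 members 0%. None of the 5 passed with the replicate block, where the adjusted p was 0.69 for Ccn1 and Slc35b3, 0.86 for Areg, 0.85 for Foxf1 and 0.42 for Upk2, while r stayed 0.81, -0.83, 0.82, 0.86 and -0.87 in that order. With a pseudocount of 0.1 the adjusted p was 0.11 for Areg and 0.12 for Foxf1, and with median-ratio scaling it was 0.12 for Foxf1.

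Ccn1 lay between 24.6 and 69.2 FPKM in bonded animals (median 37.1) and between 20.9 and 72.8 in bond-disrupted animals (median 30.4). The virgins V2 to V6 had 48.1, 17.8, 26.7, 37.2 and 58.8 FPKM of Ccn1. BD5 and B5, the highest animals of their groups for Egr1, were also the highest for Ccn1, and V3 was the lowest virgin for both. The correlation of Egr1 with Ccn1 was 0.93 within bonded, 0.94 within bond-disrupted and 0.92 within virgin animals (overall permutation p = 3.0e-05, rho = 0.89, p = 4.0e-05), and 0.86 without V3 and BD5. Its adjusted p stayed below 0.1 when any 1 animal was left out, from 0.0013 to 0.077, and was 0.040 when adjusted over all 136053 fits of genes to the 9 members. Between groups, the ranges of Ccn1 overlapped.

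Areg was low, with 8 to 68 reads, and its r with Jun was 0.33 within bonded, 0.93 within bond-disrupted and 0.99 within virgin animals. Foxf1 had 0.98, 0.87 and 0.88 with Jun in the same order.

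Upk2 was a rare transcript, with 6 to 174 reads and 0.211 to 5.10 FPKM. Its highest level was in B6, the animal with the least Nr4a1, and its lowest in V5, the animal with the most. The correlation was -0.91 within bonded, -0.86 within bond-disrupted and -0.98 within virgin animals (overall permutation p = 3.0e-05, rho = -0.87, p = 5.0e-05), and -0.84 without B6 and V4. Its adjusted p was 0.040 over all 136053 fits and rose to 0.12 without B6. Areg (0.16), Foxf1 (0.27) and Slc35b3 (0.27) did not pass at 0.1 when adjusted over all these fits, and passed in 11, 6 and 2 of the 17 fits that left out 1 animal.

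**Figure D5:**
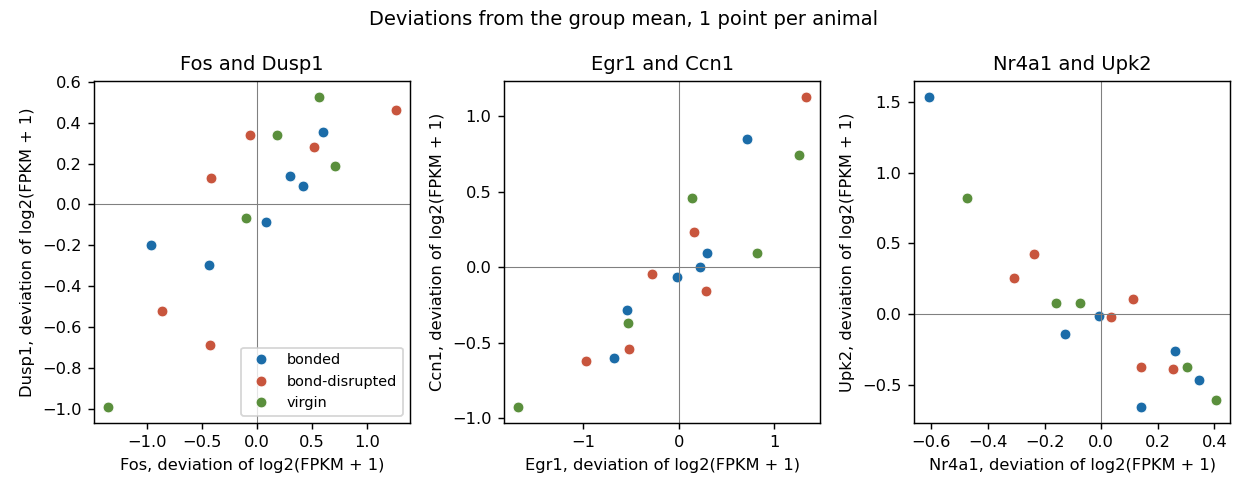
Paired deviations of 3 pairs of genes. Each point is 1 of 17 animals, coloured by group, and both axes are deviations of log2(FPKM + 1) from the group mean. Fos and Dusp1 rise together (r = 0.83), Egr1 and Ccn1 rise together (r = 0.91), and Nr4a1 and Upk2 run in opposite directions (r = -0.91), with B6 at the upper left of the last panel.

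Genes most like the members as a whole were ranked by r with the mean deviation over the 9 members in 17 animals. The highest was Mucl3 (0.82), a mucin-like gene with 0.0397 to 4.10 FPKM, followed by Ccn1 (0.82), Gulp1 (0.81), an adaptor for engulfment of dead cells, and Inafm2 (0.80). Aimp1 (0.78), Col25a1 (0.78), LOC128115513 (0.77), Gtf2b (0.76), LOC128104144 (0.76) and Znf260 (0.76) came next. Without the 2 animals farthest from the median, r was 0.88 for Ccn1 and 0.65 for Mucl3. Over all 15109 genes outside the members, 5.54% had r above 0.5 with this mean. Of the 37 other immediate early genes tested 9 did (24.3%), with a median r of 0.20 against 0.016 over all genes.

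Markers of other cells were set beside this mean deviation, with Spearman's rho after Pearson's r. For lung cell markers (11 of 13 with values) r was 0.29 and rho 0.40. Macrophage and monocyte markers (5 of 8 with values) ran the other way, with r = -0.37 and rho = -0.48, their sum being 50.1 to 136 FPKM in bonded, 47.1 to 181 in bond-disrupted and 48.6 to 105 in virgin animals. Heart muscle markers had r = 0.18 and rho = 0.19, lymphocyte markers -0.17 and -0.28, neutrophil markers -0.11 and -0.21, and red cell markers -0.079 and -0.037. For 12 housekeeping genes r was 0.26 and rho 0.13, and for depth -0.15 and -0.069. None had a permutation p under 0.05. The lowest, of macrophage and monocyte markers, were 0.12 for r and 0.061 for rho. Without the 2 animals farthest from the median of this mean, r was -0.11 for heart muscle markers, 0.039 for housekeeping genes and -0.32 for red cell markers. It was 0.31 for lung cell, -0.50 for macrophage and monocyte, -0.30 for lymphocyte and -0.21 for neutrophil markers, and -0.071 for depth. The part of any of these lists or of depth in the pattern of the members was not tested.

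The wider class was read from a list of 40 other immediate early genes, all in the table. Of these, 37 were tested, and Egr4, Nr4a3 and Npas4, which are known best from brain, stayed below 1 FPKM in every animal. None of the 37 was called by limma in any comparison. At an unadjusted p under 0.05, 2 passed for bond-disrupted against bonded and 1 in each of the other comparisons, beside 5.87%, 3.61% and 4.22% of all genes. Their median difference was 0.031, 0.045 and 0.053 in the order above, with 21 of 37 above 0 each time.

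In bond-disrupted against bonded animals the lowest differences of this list were those of Ier5 (-0.32), Klf2 (-0.31), a factor of endothelium under flow, and Hbegf (-0.30). Hbegf, a ligand of the EGF receptor, lay between 11.6 and 14.4 FPKM in bonded animals (median 13.0) and between 9.05 and 11.9 in bond-disrupted animals (median 10.3). The virgins V2 to V6 had 11.55, 10.5, 10.2, 11.9 and 11.46 FPKM of Hbegf. Of the 6 bond-disrupted animals, BD1 alone lay above the lowest bonded animal. The difference had SE 0.076 and an unadjusted limma p of 0.0010, and it did not pass adjustment (adjusted p = 0.816).

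The highest differences in that comparison were those of Arc (0.51), Errfi1 (0.42) and Maff (0.37). Errfi1, which dampens signals of the EGF receptor, lay between 14.6 and 40.6 FPKM in bond-disrupted animals (median 16.98) and between 12.1 and 17.6 in bonded animals (median 14.0). The highest value belonged to BD2. Without BD2 the differences were 0.21 for Errfi1, 0.15 for Arc and 0.067 for Maff, and -0.16 for Ier5 among the lowest, and without BD6 that of Klf2 was -0.18.

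In virgin against bonded animals the lowest differences were those of Egr2 (-0.26), Hbegf (-0.20) and Plk2 (-0.16), and the highest those of Dusp2 (0.32), Arc (0.30) and Maff (0.24). In virgin against bond-disrupted animals Errfi1 (-0.43), Arc (-0.21) and Socs3 (-0.18) came lowest, and Dusp2 (0.25), Klf2 (0.24) and Dusp6 (0.20) highest. Apart from Hbegf, single animals moved these values by over 1.5 times. In virgin against bonded animals they were -0.019 for Egr2 without B3, -0.036 for Plk2 and 0.090 for Dusp2 without V4, and 0.094 for Arc and -0.026 for Maff without V6. In virgin against bond-disrupted animals they were -0.22 for Errfi1 and 0.15 for Arc without BD2, -0.014 for Socs3 without BD3, 0.023 for Dusp2 without V4, 0.10 for Klf2 without V6 and 0.12 for Dusp6 without BD6. None had an adjusted limma p under 0.816 in the 3 comparisons.

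Upstream of the members, a list of 23 factors and kinases, among them Srf, Creb1, the ternary complex factors and the MAP kinases, was also read from the same fit. All 23 were tested, 0 were called, and 1, 0 and 0 had an unadjusted p under 0.05 in the 3 comparisons in the order above, beside 5.87%, 3.61% and 4.22% of all genes. Srf, the factor that binds the promoters of Fos and Egr1, differed by -0.0043 (SE 0.085) between bond-disrupted and bonded animals, by 0.098 (SE 0.089) between virgin and bonded and by 0.10 (SE 0.089) between virgin and bond-disrupted animals. With the mean deviation of the members, 1 of 23 (4.35%) had r above 0.5 and the median r was 0.11, beside 5.54% and 0.016 over all genes outside the members.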

How the data were processed

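Lung RNA of 17 male P. californicus was sequenced, 1 library per animal. Per the submitters' processing notes, the authors used FastQC, Trim Galore 0.4.5, STAR 2.7.2, SAMtools 1.5 and featureCounts from Subread 1.5.3, and the genome build and annotation are not given in the sources used here. The authors deposited 1 table of FPKM values, in which the column of animal j had been divided by the length of the gene j rows higher. Depths were solved first, on small RNA genes whose length was taken as their span in RefSeq. Lengths were then solved from the requirement that values be whole reads, which settled 26649 of 27787 lengths. Multiples of a length can also give whole reads. Each length was therefore sought within 1.35-fold of the value that made the levels of genes most alike between animals. This assumes that most genes differ little between animals. Of 353666 values, 98.5% came within 0.01 of a whole read. FPKM were recomputed with each gene's own length. No column belonged to no sample (0 columns).

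The 15118 genes that reached 1 FPKM in any animal were fitted on log2(FPKM + 1) with limma 3.58.1 (R 4.3.3), all 3 groups in 1 fit, with Benjamini-Hochberg adjustment over all genes. A call needed an adjusted p under 0.1 and a change of 2-fold. The limma p-values weigh a difference against the spread between these animals. They and the exact permutation p-values treat the animals as independent, which relatives are not. Each member also had an exact permutation test (two-sided). Correlations used deviations from group means, with 100000 permutations within groups. Lengths, depths and fits were tested on simulated data. In the simulation of lengths and depths each gene had the same rate in all animals, with random noise and no group difference. It could not show how well genes are recovered that vary more or differ between groups. Python 3.11.15, numpy 2.4.6, scipy 1.17.1, pandas 2.3.3, numba 0.67.0 and matplotlib 3.10.9 were used. The text names all 9 members, the 3 largest and 3 smallest differences of the other immediate early genes in each comparison, and the 10 genes most alike. The members and lists were chosen with earlier results of these data known. Alternatives were voom on the recovered reads, the deposited lengths, other pseudocounts, filters, scalings, variance trends and thresholds, 2 groups at a time, a replicate block, and leaving out animals.

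Animals with the same number are siblings or cousins in part. Of 16 pairs with the same number, 7 had correlated deviations above 0.1 (r from -0.34 to 0.41, mean 0.065, against -0.013 for other pairs across groups), so the number was not used as a block in the main fits. Values with the block stand beside the results where it changed a call.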

Additional observations from a re-analysis of the deposited data

Results flagged for a closer look

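An animal lay far from the others of its group in 9 of 138 groups tested (9 members and 37 other immediate early genes in 3 groups each), by Dixon's test at the 95% level on log2(FPKM + 1). Chance passes this test in about 1 in 20 groups, and the genes of a group of animals are not independent of each other. Among the 27 groups of members there was 1: Junb in V3, at 17.8 FPKM the lowest of the virgins. V3 was also below its group mean in the other 8 members.

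Outside the members, Errfi1 (40.6 FPKM) and Csrnp1 (43.0 FPKM) were highest of the bond-disrupted animals in BD2, and Nr4a2, a relative of Nr4a1, in BD6 (4.96 FPKM). The phosphatase gene Dusp4 was lowest of that group in BD5 (1.42 FPKM). Csrnp1 was highest of the bonded animals in B2 (14.7 FPKM). Among virgins, Maff, a small partner of bZIP factors, was highest in V6 (35.7 FPKM), Myc, a growth factor-induced transcription factor, was highest in V4 (4.85 FPKM), and Tiparp was lowest in V4 (12.1 FPKM).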

How the results depend on the processing

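No member was called under any alternative. With the deposited lengths, limma called 40 genes for bond-disrupted against bonded, 113 for virgin against bonded and 35 for virgin against bond-disrupted animals, and the median spread of the members was 1.30 in place of 0.32. There the differences of bond-disrupted from bonded animals turned to -0.21 for Fos, -0.64 for Fosb, 0.42 for Jun, 0.72 for Ier2, -0.80 for Dusp1, 1.02 for Ier5 and -0.14 for Errfi1. Those of virgin from bonded animals turned to -0.88 for Fosb, -0.086 for Egr1, -1.16 for Dusp1, 0.39 for Egr2, 0.87 for Hbegf and -0.0076 for Arc. Those of virgin from bond-disrupted animals turned to 0.21 for Fos, -0.40 for Jun, -0.42 for Egr1, -0.16 for Ier2, 0.27 for Socs3, -0.91 for Klf2 and -0.043 for Dusp2, and the slope of Areg on Jun to -0.36. By construction these values carry the lengths of other genes. The difference of Dusp1 between virgin and bond-disrupted animals was 0.0021 with voom and 0.021 with the replicate block. In the group comparisons the replicate block (pairing animals by number) changed no other direction among the members and the other genes named for a comparison, and called 0 genes. In the fits to single members, where it was added after seeing the data, 0 pairs of members passed, as without it, and none of Ccn1, Slc35b3, Areg, Foxf1 and Upk2 did. Without BD2 and BD6, left out after seeing the data, bond-disrupted against bonded was 0.063 for Nr4a1 and 0.13 for Ier2, and virgin against bond-disrupted was 0.056 for Arc, 0.0013 for Fosb and -0.042 for Junb. The cause was not tested. Leaving out 1 animal at a time gave 0 to 1 genes called for bond-disrupted against bonded and for virgin against bonded (1 without B4 in both) and 0 for virgin against bond-disrupted animals. Pairs of members that passed together numbered 0 to 3. For bond-disrupted against bonded the differences ran from -0.15 to 0.28 for Fos, -0.20 to 0.029 for Ier2 and -0.040 to 0.19 for Dusp1. For virgin against bonded they ran from -0.30 to 0.23 for Fos, -0.088 to 0.18 for Jun, -0.12 to 0.075 for Junb, -0.085 to 0.30 for Dusp1 and -0.026 to 0.33 for Maff. For virgin against bond-disrupted they ran from -0.39 to 0.12 for Fos, -0.076 to 0.0034 for Fosb, -0.087 to 0.65 for Egr1, -0.14 to 0.24 for Dusp1 and -0.42 to 0.15 for Arc. The adjusted p of Nr4a1 over all alternatives was 0.838 to 1 against bonded and 0.656 to 1 against bond-disrupted animals. Lengths from RefSeq were not run, since that table gives spans and not exon lengths. With 5 or 6 animals a group, differences whose interval included 0, 25 of the 27 of members, could not be told from 0. The intervals of Nr4a1 in virgins left 0 out, but these differences did not pass adjustment over all genes.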

Other observations

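Of the 37 other immediate early genes tested, 6 had their highest level of all animals in the bond-disrupted animal BD2 and 7 their lowest, so the list went both ways there. Over all genes tested, 9.70% were highest and 12.3% lowest in BD2. In BD6, which also stood apart, 10 of the 37 were lowest (12.4% of all genes), and in V3 6 of the 37 (4.48% of all genes). The genes of BD2 are named after their values were seen. Csrnp1, a nuclear protein first known as a target of axin, was 43.0 FPKM in BD2 and 14.7 in the next animal, B2. Maff was 54.0 FPKM in BD2 and 35.7 in the next, V6. Arc was 8.61 FPKM in BD2 and 3.14 in the next, V6. Errfi1 was 40.6 FPKM in BD2 and 18.9 in the next, BD5. Klf6, a zinc finger factor, and Fosl2, a Fos relative, also had their highest levels in BD2, at 80.5 and 10.4 FPKM. The 7 that were lowest in BD2 were Ier3 (11.4 FPKM), Ier5 (12.6), Egr2 (0.504), Egr3 (0.408), Plk2 (12.3), Dusp5 (3.36) and Socs3 (6.40). Of the 9 members, Ier2 was lowest of all animals in BD2, at 23.4 FPKM, while Dusp1 was 89.1 FPKM and Egr1 19.6, both above the medians of their group. BD2 is 1 of the 2 animals that stood apart over all genes (13.4% of genes over 0.5 from the median), and the part of that difference in these values was not tested.

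Among the other immediate early genes, those most like the 9 members after Ccn1 were Ier3 (r = 0.73 with their mean deviation, 17 animals), Ppp1r15a (0.71), which restarts protein synthesis after stress, and Plk3 (0.62), a stress kinase. Fosl2 (-0.44) and Socs3 (-0.39), an inhibitor of cytokine signals, had the lowest r of the 37. Egr2, a close relative of Egr1, varied nearly as much between animals of a group (SD 0.72 on the log2(FPKM + 1) scale, above 97.2% of genes) but had r = -0.28 with that mean.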
